A study of Mus musculus with 29 samples.

Results

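The 10 genes described here code for water channels, a urea transporter and ion channels of the urothelium, the lining of the bladder. They were taken by symbol, as Aqp1, Aqp3, Slc14a1, Scnn1a, Scnn1b, Scnn1g, Trpv4, Piezo1, Kcnj15 and Clca4b, from the 35199 genes of each table. The set was chosen with earlier results of these data known, so counts of members set beside all genes are a description only. RNA-seq was carried out on mouse urothelium and bladder tumors in which an activated form of the nuclear receptor Pparg, fused to the VP16 activator, was switched on in basal cells. Of 29 samples, 21 were analysed. The 4 comparisons set mutant against control cells 4 days after tamoxifen, luminal against basal tumors, the luminal domain of mixed lesions against basal tumors, and that luminal domain against the basal-like domain of mixed lesions.

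The mutants are labelled K5VP16;Pparg+/-. In the study's methods, Krt5CreERT2 removes a STOP cassette at Rosa26, after which a CAG promoter drives VP16Pparg with an EGFP reporter. Only cells with Krt5 promoter activity, and their progeny, could therefore express the transgene. The targeted stem cells were 129B6 hybrids bred to C57BL/6N, and the Krt5CreERT2 line was FVB. Tamoxifen was given at 8 to 12 weeks of age. The 4-day groups were 4 controls and 5 mutants, all untreated with carcinogen, from which Gfp+ cells were sorted. The labels give these controls as wild type and the paper as K5;mTmG, with the mTmG reporter in the mutants too. Tumor tissue was laser-captured as 3 libraries each of basal tumor, luminal tumor, luminal domain and basal-like domain, from mice given 0.05% BBN, a bladder carcinogen, in drinking water. Tamoxifen was given into the bladder after the first month of BBN. Titles read 4 months, which in the paper is the time after tamoxifen, and treatments give 5 months of BBN. Basal tumors came from wild-type mice by the labels (the paper gives control tumors as VP16;Pparg fl/fl in some places and K5;mTmG in others), and the other tumor groups from K5VP16;Pparg+/- mice. Luminal and basal-like domains are the top and the bottom of mixed lesions in the titles. The wild-type libraries with and without 1 month of BBN were not analysed here, since the columns of their table could not be assigned to conditions. The labels do not say which libraries share an animal or lesion, so the p-values measure the spread between these libraries.

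The urothelium separates urine from blood, and its surface cells keep water, urea and ions from leaking back. Aquaporins pass water, Slc14a1 (UT-B) passes urea, and the epithelial sodium channel, built from the alpha, beta and gamma subunits Scnn1a, Scnn1b and Scnn1g, takes up sodium. Trpv4 and Piezo1 are cation channels that respond to stretch and other mechanical stimuli as the bladder fills.

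The promoters of Aqp3, Scnn1b, Scnn1g and Piezo1 are shown, of which Piezo1, Aqp3 and Scnn1b each passed the test in a comparison below and Scnn1g lies beside Scnn1b on the chromosome. No window of Slc14a1 or Scnn1a is shown. Each run holds the 250 bases before the RefSeq start on GRCm38.p6, read 5′ to 3′ on the gene's strand. Capitals mark matches on either strand. The motif AGGTCA is the core to which Pparg and its partner Rxr bind, and GGGCGG is the box of the SP and KLF factors. The motif AGATAA belongs to the GATA factors and TGANTCA to AP-1. The TATA box was searched as TATAAA, and the direct repeat of AGGTCA, with 1 base between its copies, was searched too. None of these motifs overlapped another in the windows shown.
Aqp3 upstream, chr4:41098184-41098433 (- strand): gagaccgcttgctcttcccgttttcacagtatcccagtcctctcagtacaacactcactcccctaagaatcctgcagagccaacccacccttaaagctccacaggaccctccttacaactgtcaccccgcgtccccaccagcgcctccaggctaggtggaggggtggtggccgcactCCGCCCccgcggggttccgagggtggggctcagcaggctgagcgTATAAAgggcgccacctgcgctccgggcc
Scnn1b upstream, chr7:121864788-121865037 (+ strand): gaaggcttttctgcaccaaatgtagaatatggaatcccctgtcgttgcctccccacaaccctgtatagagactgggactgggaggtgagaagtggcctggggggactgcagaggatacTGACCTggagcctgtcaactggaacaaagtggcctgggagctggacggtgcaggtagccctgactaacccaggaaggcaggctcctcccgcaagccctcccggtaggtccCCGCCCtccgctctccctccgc
Scnn1g upstream, chr7:121734229-121734478 (+ strand): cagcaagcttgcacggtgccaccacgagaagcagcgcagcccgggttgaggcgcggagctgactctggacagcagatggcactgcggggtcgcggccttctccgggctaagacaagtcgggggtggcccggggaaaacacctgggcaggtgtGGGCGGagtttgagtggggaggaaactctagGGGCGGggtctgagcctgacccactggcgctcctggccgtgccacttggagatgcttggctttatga
Piezo1 upstream, chr8:122551330-122551579 (- strand): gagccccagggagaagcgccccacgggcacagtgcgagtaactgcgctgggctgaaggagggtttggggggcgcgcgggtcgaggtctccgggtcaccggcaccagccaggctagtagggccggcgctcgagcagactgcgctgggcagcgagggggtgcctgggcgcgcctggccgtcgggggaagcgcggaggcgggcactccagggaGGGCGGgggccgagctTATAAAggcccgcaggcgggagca
GGGCGG stands at 2 places in the Scnn1g promoter, 1 stands in each of the others, and this motif was held by 32.7% of the 32851 promoter windows of the same length. TATAAA starts 29 bases before the start of Aqp3 and 24 bases before that of Piezo1, and was found in 12.4% of windows. The Scnn1b window holds AGGTCA on the minus strand, 132 bases before the start, a motif found in 14.0% of windows. Neither AGATAA (9.99% of windows) nor TGANTCA (6.75%) is in these 4 windows. The direct repeat of AGGTCA, found in 0.0335% of windows, is in none of them either. Across the other members with a window, Clca4b also holds AGGTCA. A match of letters is a description and says nothing on binding.

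In the GENCODE M21 annotation of GRCm38, all 10 are protein-coding genes. Scnn1g (chr7:121734479-121768475) and Scnn1b (chr7:121865038-121918514) are neighbours on the same strand, 96.6 kb apart, whereas Scnn1a lies on another chromosome (chr6:125320659-125344943). Aqp3 lies at chr4:41092722-41098183, Piezo1 at chr8:122481698-122551329, Aqp1 at chr6:55336432-55348555, Trpv4 at chr5:114622152-114658421, Kcnj15 at chr16:95257558-95300260 and Clca4b at chr3:144910921-144932529. Slc14a1 lies on chromosome 18.

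Values are normalized counts, that is gene counts divided by the authors' DESeq2 factors within a table, and levels were compared only within a table. They summed to between 36520193 and 53904714 over the libraries of the 4 main tables. Differences were tested with limma on log2(normalized count + 1) over all genes with at least 10 normalized counts in as many libraries as the smaller group, and a gene is called when its Benjamini-Hochberg adjusted p is under 0.05. Pparg averaged 9705 ± 266 (SD, n = 4) in 4-day controls and 7622 ± 1223 (n = 5) in mutants, a difference that was not called although every mutant lay below every control (log2 fold change -0.36, SE 0.12, limma adjusted p = 0.126). It averaged 80.3 ± 59.4 in basal and 6476 ± 2606 in luminal tumors, and 2819 ± 458 in basal-like and 4876 ± 680 in luminal domains (n = 3 each). Y-linked genes, which mark the sex of the mouse, scored between 11.05 and 11.11 (mean log2 over 4 genes) in 3 of the 4-day controls. They scored between 5.16 and 5.91 in the remaining control and all 5 mutants. Sex thus differed between most controls and the mutants, and it cannot be told apart from genotype at 4 days. All 10 superficial-cell markers, among them the uroplakins, were higher in luminal tumors and luminal domains than in basal tumors without overlap.

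Levels were ranked between members per kilobase of annotated exons. In 4-day controls Aqp3, which passes water and glycerol, had a median of 41160 normalized counts per kb. Trpv4 followed at 3383, Slc14a1 at 2904 and Scnn1g at 2561 per kb, and these neighbours overlapped between libraries. Scnn1b stood at 1148 and Piezo1 at 271 per kb, each clear of the next. Scnn1a was far lower, at 47.2 per kb, and overlapped with Aqp1 at 10.2. Kcnj15 was near the floor at 1.29 per kb and Clca4b was listed at 0. The beta and gamma subunits were thus above the alpha subunit in every control library.

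At 4 days, the stretch-gated channel Piezo1 rose in mutants, and the other members that could be tested did not pass. Of the 9 tested members 1 was called, against 2.85% of the 16413 genes tested, and the same 1 member had groups that did not overlap, against 9.18% of genes. Clca4b was too low to be tested. Piezo1 measured 2885, 2426, 2786 and 2597 normalized counts in the controls and 4406, 3628, 3986, 4615 and 4170 in the mutants. Every mutant library lay above every control library, but sex was not separated from genotype in this comparison. Means were 2673 ± 204 (SD, n = 4) and 4161 ± 381 (n = 5), a log2 fold change of 0.64 (SE 0.09, limma adjusted p = 0.0112), or 1.55-fold. The call held without any one library (adjusted p from 0.0078 to 0.0445). It was lost in the authors' table of 3 against 3 libraries (log2 fold change 0.60, limma adjusted p = 0.066), and with the single control of low Y-linked genes against the mutants (0.52, adjusted p = 0.602), and over all alternatives other than left-out libraries the adjusted p ranged from 0.0042 to 0.602.

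The water channel Aqp3 and the urea transporter Slc14a1 did not pass the test at this time. Aqp3 read 85489, 79439, 70394 and 71125 in controls and 69218, 91896, 83598, 87563 and 108222 in mutants. The groups overlapped, with the highest and the lowest library both being mutants. The log2 fold change was 0.19 (95% interval -0.16 to 0.54, limma adjusted p = 0.53). Slc14a1 read 16796, 11342, 11063 and 11863 in controls and between 10499 and 14620 in mutants, and its log2 fold change was -0.00 (interval -0.33 to 0.33, limma adjusted p = 0.993). Summed erythroid markers were low in these cells, from 118 to 416 over the 9 libraries.

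Sodium channel subunits and Trpv4 likewise overlapped between control and mutant cells. Scnn1a averaged 184 ± 48.8 (SD, n = 4) and 189 ± 36.3 (n = 5), Scnn1b 3110 ± 397 and 3075 ± 851, and Scnn1g 7722 ± 431 and 7078 ± 1202. Trpv4 averaged 13149 ± 1708 and 12014 ± 2300. Their log2 fold changes ran from -0.14 to 0.06, with limma adjusted p from 0.566 to 0.91. The widest of these 4 intervals was that of Scnn1a, from -0.49 to 0.62.

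Aqp1 and Kcnj15 spread widely among mutant libraries and were not called. Aqp1, a water channel known from vessels and red cells, read 23.8, 29.6, 24.2 and 137 in controls and 25.5, 84.2, 762, 1057 and 256 in mutants. 4 of the mutants lay above 3 of the controls, but the first mutant was within their range (log2 fold change 2.42, SE 1.05, limma adjusted p = 0.226). Endothelial markers, 11 genes summed, lay between 907 and 2837 in control libraries and between 1090 and 4459 in mutant libraries, and the sums were highest in mutants 3 and 4 (4459 and 4065), which also had the most Aqp1. By the mean log2 over the list, however, mutant 1, with the least Aqp1 of the mutants, stood at 5.69, between mutant 4 at 5.85 and mutant 3 at 5.52. Of the 8 endothelial markers tested 5 were positive (median log2 fold change 0.75, none called). Cdh5 was listed at 0 in all 4 controls and in every mutant except mutant 1, and no other marker was at 0 in mutants 3 and 4. Fibroblast markers summed to between 12161 and 86626 in controls and between 31836 and 224653 in mutants, and were likewise highest in these 2 libraries. The part of other cells in the Aqp1 values was not tested, and in bulk RNA fewer cells of a type and less RNA per cell cannot be told apart.

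Kcnj15, an inwardly rectifying potassium channel, read 401.6, 87.4, 15.6, 10.0 and 3.08 in mutants, against 2.13 to 16.1 in controls. 2 of the mutants were above all controls and the other mutants within their range (log2 fold change 1.94, SE 1.21, limma adjusted p = 0.397). Across the 9 libraries Kcnj15 and Scnn1g ran in opposite directions (Pearson's r = -0.98 on the log2 scale), the strongest of the 36 pairs of tested members. These libraries share a table and its scaling, and the libraries with the highest Kcnj15, mutants 1 and 2, had the lowest Scnn1g, at 5545 and 6253. Clca4b, of the CLCA family, was at 0 in all controls and at 0, 0, 1.45, 2.15 and 5.75 in mutants, values too low to read.

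**Figure D1:**
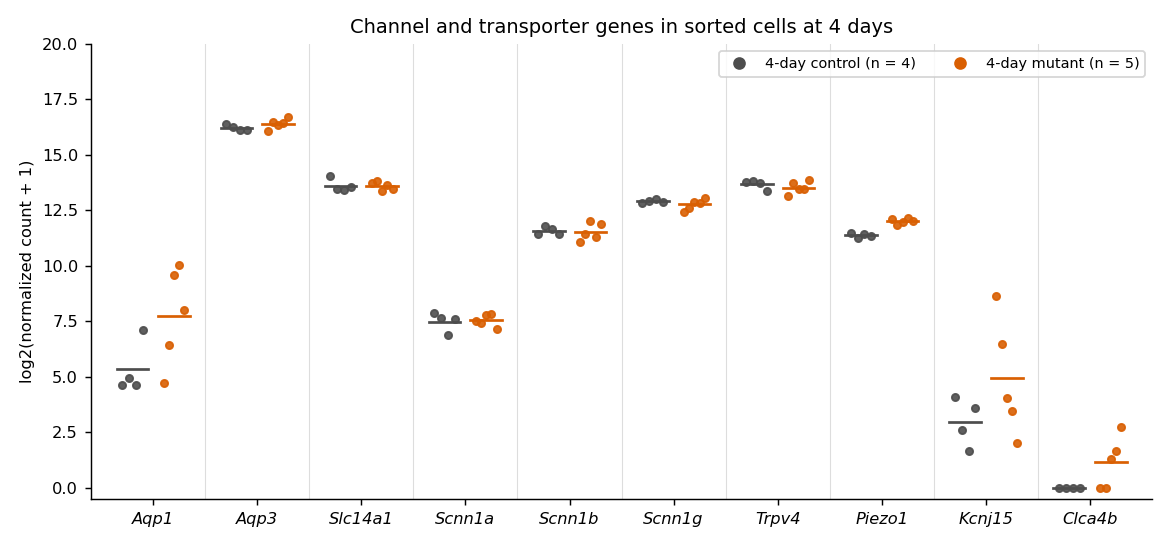
Level of each member in sorted cells at 4 days, as log2(normalized count + 1), with 1 point per library (in table order) and a bar at the mean of the log2 values. The 5 mutants lie above the 4 controls for Piezo1, whereas the groups overlap for Aqp3, Slc14a1, Trpv4 and the sodium channel subunits, and Aqp1 and Kcnj15 spread widely among mutants.

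In luminal tumors the urea transporter Slc14a1 and the sodium channel subunit Scnn1b were higher than in basal tumors. These were the 2 members called of 9 tested, against 2.2% of the 15357 genes tested. Scnn1b passed the filter only through the luminal tumors and luminal domains, so the filter fixed its direction. The groups did not overlap for 4 of the 9, with Slc14a1, Scnn1b and Scnn1g higher and Aqp1 lower in luminal tumors, against 21.5% of genes. The fit included the 2 luminal domain libraries of the same table, and the median gene of all tested had a log2 fold change of -0.11.

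Slc14a1 read 88.8, 857 and 438 normalized counts in the basal tumors and 9379, 13732 and 5881 in the luminal tumors. The lowest luminal tumor lay well above the highest basal tumor. Means were 461 ± 385 (SD, n = 3) and 9664 ± 3933 (n = 3), a log2 fold change of 4.82 (SE 0.72, limma adjusted p = 0.0249), or 28.2-fold. With each library left out it stayed between 3.89 and 5.52, and the adjusted p reached 0.0983 without luminal tumor 1 and 0.101 without luminal tumor 2. Without a trend in the variance the adjusted p was 0.0601, and with luminal tumors and luminal domains pooled 0.00377, which are the limits over the alternatives that keep every library. Slc14a1 is also known as the urea transporter of red cells. Summed erythroid markers (9 genes) ran from 2104 to 7218 in basal tumors and stood at 4136, 363596 and 2781 in luminal tumors 1 to 3. In luminal tumors 1 and 3, with erythroid sums within the range of the basal tumors, Slc14a1 was 9379 and 5881. All 5 erythroid markers tested had positive log2 fold changes in luminal tumors (median 1.93, none called). Slc4a1, a red cell gene, was listed at 0 in all 6 of these libraries, luminal tumor 2 included, and the part of red cells was not tested.

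Of the sodium channel subunits, Scnn1b rose and the others were not called. Scnn1b was all but missing from basal tumors, at 0.86, 0.94 and 0, and read 1595, 343 and 162 in luminal tumors. Every luminal tumor was above every basal tumor by a wide margin. No basal tumor reached the count the filter asks for, so Scnn1b entered the test only through luminal libraries. The filter thus fixed the direction, and neither the lack of overlap nor the call is separate support for it. Luminal tumors differed among themselves about as much as their mean (700 ± 780, n = 3). The fitted log2 fold change of 8.19 (SE 1.39, limma adjusted p = 0.0303) depends on the pseudocount, since basal tumors were at or under 1 normalized count, and was 8.81 with a pseudocount of 0.5 and 6.34 with 5. The call was lost without basal tumor 1 or 3 or without luminal tumor 1 or 2 (adjusted p from 0.0651 to 0.119) and with no filter on low genes (0.0599). Over the alternatives that keep every library the adjusted p ran from 0.0119 to 0.0599.

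Scnn1g read 0.85, 0 and 141 in basal tumors and 207, 761 and 162 in luminal tumors. Its groups did not overlap, but basal tumor 3 came close to luminal tumor 3 (log2 fold change 5.53, SE 1.85, limma adjusted p = 0.161). Scnn1a, the alpha subunit, overlapped fully, at 17, 37.0 and 94.3 in basal tumors and 0, 146 and 88.6 in luminal tumors (log2 fold change -0.77, interval -4.98 to 3.44, limma adjusted p = 0.867). The direction for Scnn1a turned with luminal tumor 1, where it was listed at 0, and was 1.51 without that library.

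Aqp3 remained the most abundant member per kilobase in each tumor group, at medians of 5562 normalized counts per kb in basal tumors and 17568 in luminal tumors. Its counts were 18972, 10172 and 9575 in basal tumors and 32133, 12446 and 48778 in luminal tumors. Luminal tumor 2 fell among the basal tumors, and the difference did not pass the test (log2 fold change 1.13, SE 0.51, limma adjusted p = 0.278). Trpv4 read 402, 446 and 43.0 against 614, 931 and 440; luminal tumor 3 lay just below basal tumor 2 (log2 fold change 1.66, SE 0.89, limma adjusted p = 0.36).

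Aqp1 was the member lower in every luminal tumor than in every basal tumor, at 2.31, 7.02 and 155 against 747, 372 and 259 in basal tumors. The groups did not overlap, with luminal tumor 3 nearest to the basal tumors, and the difference was not called (log2 fold change -4.70, SE 1.41, limma adjusted p = 0.126). Without luminal tumor 3 it was -6.34 with an adjusted p of 0.0181, and over all alternatives the adjusted p ran from 0.0181 to 0.424. Summed endothelial markers were 892, 795 and 4429 in luminal tumors 1 to 3 and 4023 to 5545 in basal tumors, and all 11 of them had negative log2 fold changes (median -3.06, 1 called). Luminal tumor 3 had the highest endothelial sum and the most Aqp1 of the luminal tumors. Its sum lay within the range of basal tumors, but its mean log2 over the list was 6.86, below their 7.66 to 8.22. Tek was listed at 0 in all 3 luminal tumors, Emcn in luminal tumor 2 and Cldn5 in luminal tumor 3. The endothelial part in Aqp1 was not tested.

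Piezo1 and Kcnj15 varied within groups. Piezo1 read 886, 566 and 402 in basal tumors and 463, 1317 and 87.2 in luminal tumors (log2 fold change -0.64, interval -2.67 to 1.40, limma adjusted p = 0.757). Kcnj15 read 138, 7.43 and 834 against 45.2, 462 and 1.07 (log2 fold change -1.49, SE 2.33, limma adjusted p = 0.781). Clca4b was listed at 0 in every tumor library except luminal tumor 2, at 11.8.

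**Figure D2:**
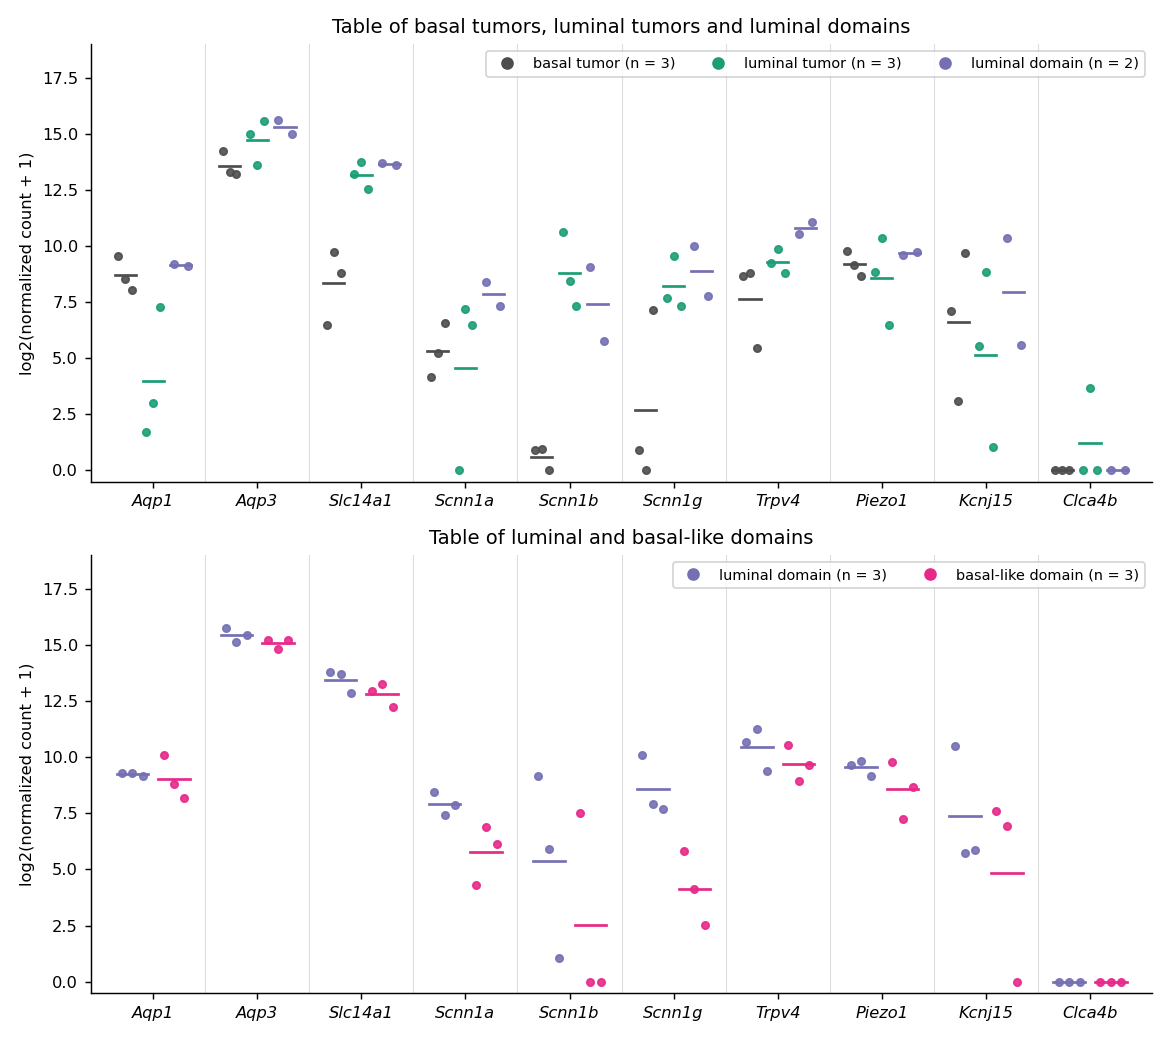
Level of each member in the tumor libraries, as log2(normalized count + 1), with 1 point per library and a bar at the mean of the log2 values; the upper panel is the table of basal tumors, luminal tumors and 2 luminal domains, and the lower panel the table of luminal and basal-like domains. In the upper panel, Slc14a1 and Scnn1b of the luminal tumors and of the 2 luminal domains lie above all 3 basal tumors. In the lower panel, Scnn1a and Scnn1g of the luminal domains lie above all 3 basal-like domains.

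The luminal domain of mixed lesions was compared with the same 3 basal tumors in a table of its own. Both comparisons share these controls, so their values are given side by side and are not independent. Aqp3 and Slc14a1 rose, 2 of 8 members tested, against 2.53% of the 14921 genes tested. All 8 tested members had positive log2 fold changes (median 2.15, against 0.01 over all genes), also under both other scalings, and 5 of the 8 did not overlap between groups, against 26.8% of genes. Scnn1b and Clca4b did not pass the filter.

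Aqp3 read 19954, 10490 and 9957 in basal tumors and 53858, 34678 and 43743 in the luminal domains. All 3 domains lay above all 3 basal tumors. Means were 13467 ± 5624 (SD, n = 3) and 44093 ± 9595 (n = 3), a log2 fold change of 1.76 (SE 0.35, limma adjusted p = 0.0465), or 3.4-fold. This call was lost without any one of the 6 libraries (adjusted p from 0.0692 to 0.161), as well as with no filter (0.0694), with no trend (0.14) and with upper-quartile scaling (0.0674), while the log2 fold change stayed between 1.58 and 2.09. Over the alternatives that keep every library the adjusted p ran from 0.0336 to 0.14.

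Slc14a1 read 92.5, 875 and 451 in basal tumors and 14195, 13569 and 7531 in luminal domains. The log2 fold change was 5.09 (SE 0.76, limma adjusted p = 0.0258), next to 4.82 for the luminal tumors. The limma call was lost without basal tumor 3 (adjusted p = 0.053) and without luminal domain 1, 2 or 3 (0.122, 0.128 and 0.0904), and with no trend (0.0802), and over the alternatives that keep every library the adjusted p ran from 0.0202 to 0.0802. Erythroid markers summed to 51640, 65287 and 96257 in these domains and to between 2165 and 7564 in basal tumors, and 4 of the 5 tested were called higher. Slc4a1 was listed at 0 in all 6 libraries. The part of red cells in this comparison was not tested.

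Scnn1a, Scnn1g and Trpv4 were higher in each luminal domain than in each basal tumor, and none was called. Scnn1a read 359, 173 and 234 against 18, 38.5 and 98.9 (log2 fold change 2.54, SE 0.99, limma adjusted p = 0.204). Scnn1g read 1092, 233 and 202 against 0.90, 0 and 147 (log2 fold change 5.83, SE 1.95, limma adjusted p = 0.152). Scnn1b, which was not tested, stood at 565, 57.8 and 1.07 against 0.90, 0.96 and 0, so that luminal domain 3 was as low as the basal tumors. Trpv4 read 1593, 2358 and 650 against 426, 463 and 45.0 (log2 fold change 2.69, SE 0.98, limma adjusted p = 0.179).

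Aqp1 overlapped between the groups. It read 622, 606 and 557 in luminal domains and 788, 385 and 270 in basal tumors (log2 fold change 0.45, interval -0.86 to 1.76, limma adjusted p = 0.697). Endothelial sums overlapped too, at 4700 to 7690 in luminal domains and 4425 to 5882 in basal tumors. Piezo1 averaged 760 ± 172 in luminal domains and 626 ± 254 in basal tumors (log2 fold change 0.33, limma adjusted p = 0.748), and Kcnj15 was led by single libraries of each group, luminal domain 1 at 1466 and basal tumor 3 at 922. Clca4b was listed at 0 in all 6 libraries.

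Within mixed lesions, the luminal domain was set against the basal-like domain. None of the 9 tested members was called, as was the case for 0% of the 14874 genes tested by limma with a trend, whereas 2 members had an unadjusted p under 0.05, as had 757 of all genes. Without the trend 20 genes passed and no member. All 9 tested members had positive log2 fold changes (median 0.97, against -0.01 over all genes), also under both other scalings, and 2 did not overlap between the domains, Scnn1a and Scnn1g, against 10.8% of genes.

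Scnn1g read 1109, 240 and 207 in the luminal domains and 54.9, 16.4 and 4.71 in the basal-like domains. The lowest luminal domain was above the highest basal-like domain (519 ± 512 and 25.3 ± 26.3, SD, n = 3 each), with a log2 fold change of 4.43 (SE 1.17, interval 1.74 to 7.13, limma adjusted p = 0.77). Scnn1a read 353, 172 and 233 against 19.0, 117 and 70.1 (log2 fold change 2.14, SE 0.92, limma adjusted p = 0.935). Scnn1b read 572, 59.3 and 1.1 against 182, 0 and 0, and the groups overlapped (2.88, SE 2.66, limma adjusted p = 0.952).

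Slc14a1 and Aqp3 were high in both domains. Slc14a1 read 14024, 13578 and 7529 in luminal domains and 8020, 9676 and 4862 in basal-like domains, which overlapped (log2 fold change 0.64, interval -0.16 to 1.44, limma adjusted p = 0.935). Aqp3 read 54551, 35575 and 44834 against 38694, 29250 and 37803 (log2 fold change 0.34, interval -0.24 to 0.92, limma adjusted p = 0.94). Per kilobase Aqp3 and Slc14a1 ranked at the top in both domains, with medians of 20669 and 2008 in the basal-like and 24513 and 3399 in the luminal domain, and neither overlapped with the next gene. Basal-like domains and basal tumors are in separately normalized tables and were not compared.

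Trpv4, Piezo1, Kcnj15 and Aqp1 overlapped between the domains. Their log2 fold changes were 0.72, 0.97, 2.52 and 0.22, with limma adjusted p from 0.935 to 0.986. Aqp1 was even across luminal domains (570 to 630) and uneven across basal-like domains (292 to 1095), and the basal-like domain with the most Aqp1 was also that with the highest endothelial sum, 11176 against 3636 and 4921 in the others. Its part in the Aqp1 values was not tested. Clca4b was listed at 0 in all 6 domains.

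**Figure D3:**
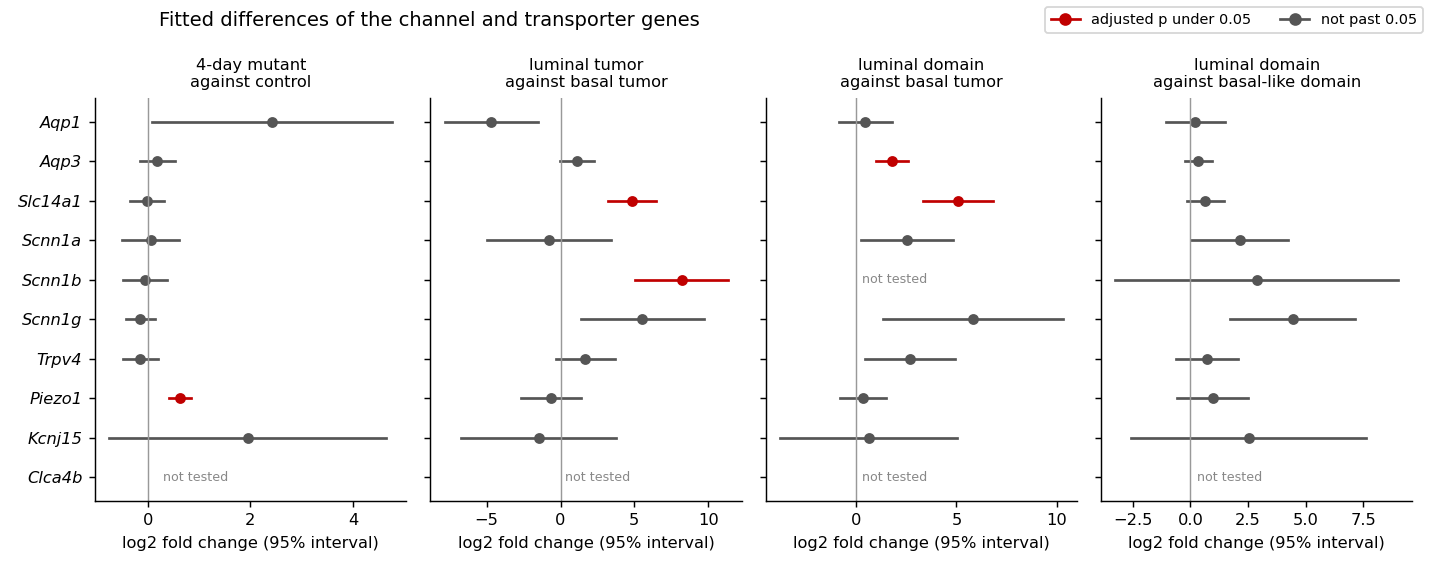
Fitted log2 fold change of each member in the 4 comparisons, with its 95% interval from limma; red marks an adjusted p under 0.05 and members that failed the filter read "not tested". Piezo1 passes at 4 days, Slc14a1 and Scnn1b in luminal tumors, Aqp3 and Slc14a1 in the luminal domain against basal tumors, and no member between the domains.

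**Figure D4:**
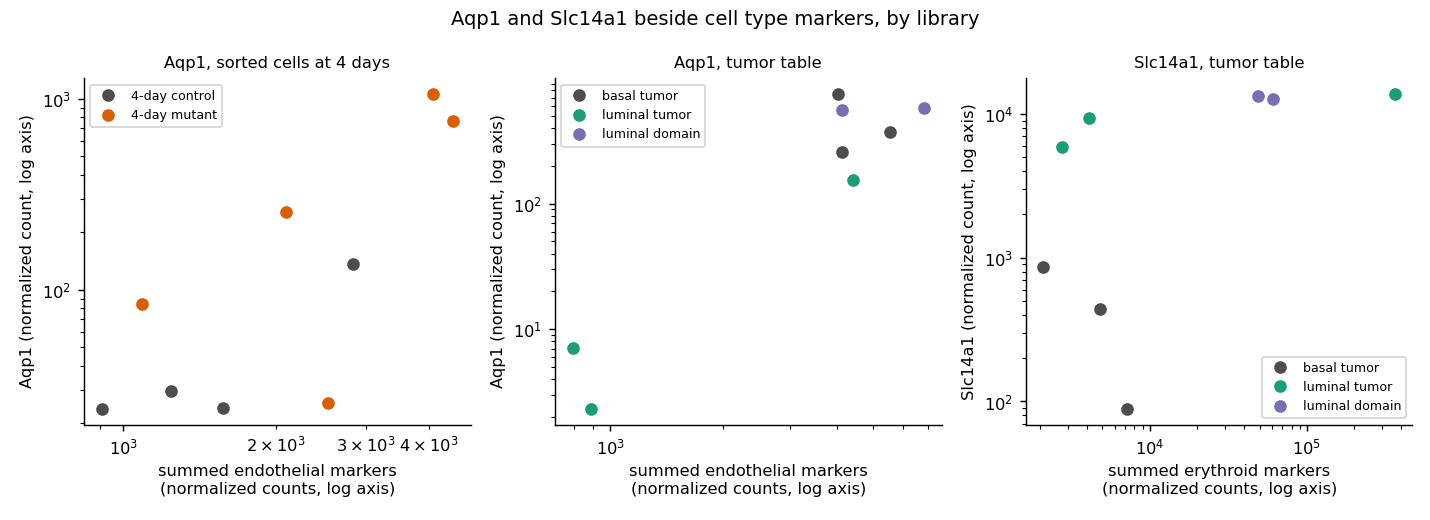
Aqp1 beside the summed endothelial markers in the 4-day and tumor tables, and Slc14a1 beside the summed erythroid markers in the tumor table, with 1 point per library on log axes. The 2 luminal tumors with endothelial sums of 892 and 795 hold the least Aqp1, and 2 luminal tumors with erythroid sums in the range of basal tumors hold 9379 and 5881 of Slc14a1.

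The wider set of channel genes was covered by 6 lists (aquaporins and urea transporters, the epithelial sodium channel and its regulators, TRP and mechanosensitive channels, potassium channels, chloride channels and CLCA proteins, and the sodium pump with ion cotransporters), with 156 genes apart from the members. At 4 days 5 of the 113 tested were called (4.42%, against 2.85% of all genes), 3 higher and 2 lower. For these genes, too, sex and genotype cannot be told apart. Ttyh2, of a family of anion channels, rose from 90.8 ± 33.3 to 365 ± 204 (log2 fold change 1.89, limma adjusted p = 0.0461), and Clca1 from 29.3 ± 6.31 to 99.1 ± 42.2 (1.63, adjusted p = 0.0458). Tmem63a, a mechanosensitive channel like Piezo1, rose from 4360 ± 455 to 6034 ± 413 (0.47, limma adjusted p = 0.0296). Kcnk2 (TREK-1), a stretch-sensitive potassium channel, fell from 468 ± 138 to 140 ± 43.9 (-1.73, limma adjusted p = 0.0153), and Clca3a2 from 5352 ± 816 to 2215 ± 912 (-1.35, adjusted p = 0.0277). No direction changed under the other scalings, but Ttyh2 was not called under either (limma adjusted p = 0.0544 and 0.0537), nor Clca1 after quantile normalization (0.101). Within the list of TRP and mechanosensitive channels, Piezo1 and Tmem63a were the 2 genes called of 20 tested, with a list median of 0.35 beside 0.00 over all genes. Markers of other cells were also higher in these mutants, with 8 of 8 fibroblast markers positive (median 2.02, 1 called) and 6 of 7 smooth muscle markers (median 1.47, none called), and their part in the channel values was not tested.

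In luminal tumors 4 of the 104 tested channel genes outside the members were called (3.85%, against 2.2% of all genes), 2 in each direction. Kcnk1 (TWIK-1), a potassium channel, rose from 1655 ± 1040 to 8659 ± 2251 (log2 fold change 2.54, limma adjusted p = 0.0364). Spint1, an inhibitor of the serine proteases that act on the sodium channel, rose from 3345 ± 1447 to 18383 ± 8338 (2.45, limma adjusted p = 0.0368). Usp2, a deubiquitinase known to act on the sodium channel, fell from 197 ± 135 to 0.67 ± 1.16, and Clic4, an intracellular chloride channel protein, fell from 5544 ± 2617 to 599 ± 348 (-3.27, limma adjusted p = 0.0364). After quantile normalization Usp2 and Spint1 were not called (limma adjusted p = 0.0602 and 0.0533). In the luminal domain against the same basal tumors, 5 of 101 were called (4.95%, against 2.53% of all genes), 4 higher and 1 lower. Spint1 (2.83) and Kcnk1 (2.64) were again among those higher, together with the sodium-hydrogen exchanger Slc9a2 (6.47) and Fxyd2, a regulator of the sodium pump (3.92), with limma adjusted p from 0.0239 to 0.0461, though Fxyd2 reached 0.053 under upper-quartile scaling. Usp2 was listed at 0 in all 3 luminal domains and averaged 247 ± 172 in basal tumors. In both comparisons Usp2 passed the filter only through the basal tumors, and Slc9a2 passed only through the luminal domains. The filter thus fixed their directions. Between the domains 0 of 94 were called by limma.

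With the members counted in, the sodium channel and its regulators had 13 of 18 positive log2 fold changes in luminal tumors (median 0.70, 2 called higher and 1 lower). In luminal domains 15 of 17 were positive (median 1.19, 1 called in each direction). The medians of all genes were -0.11 and 0.01, and 46.0% and 50.4% of all genes were positive. Among those called, the filter fixed the direction of Scnn1b in luminal tumors and of Usp2 in both comparisons. The TRP and mechanosensitive channels had 14 of 18 negative in luminal tumors (median -0.98), the potassium channels 16 of 23 (-1.11), the sodium pump and cotransporters 14 of 20 (-0.77) and the chloride channels 16 of 26 (-0.23). These medians kept their sign under both other scalings, whereas the aquaporins and urea transporters, with 5 of 8 negative (-0.74), had a median of 0.43 after quantile normalization. In the same comparison all 8 smooth muscle markers (median -6.60, 4 called) and all 8 fibroblast markers (median -5.27, 4 called) were negative, and their part in these lists was not tested. In luminal domains against basal tumors the potassium channels had 11 of 21 positive (median 0.21), the chloride channels 16 of 26 (0.19), the sodium pump and cotransporters 10 of 20 (-0.11), the TRP and mechanosensitive channels 8 of 18 (-0.60) and the aquaporins and urea transporters 5 of 7 (0.67). At 4 days the chloride channels and CLCA proteins had 20 of 26 positive (median 0.21), where 50.5% of all genes were positive. These medians describe the lists beside the median of all genes and carry no test.

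The genes whose pattern was most like that of a member were found over the 8 libraries of the tumor table, by Pearson's r on log2 values. For Slc14a1 they were Fam234a (0.99), Nat9 (0.99) and Naxe (0.99), and for Aqp3 Dpf2 (0.98), Aldh9a1 (0.95) and Yipf4 (0.93). Aqp1 was closest to Bdnf (0.99), Mcam (0.98), which is known from vessel walls, and Lypd6b (0.98). Scnn1b was closest to Pdha1 (0.98) and Scnn1g to Trim72 (0.99). Trpv4 was closest to Wdr78 (0.98), Kcnj15 to Ndrg1 (0.97) and Scnn1a to Prkaa2 (0.95). Among members, Slc14a1 ran with Scnn1b (0.88) and Scnn1g (0.79), and these 2 with each other (0.73). The 8 libraries share a table and its scaling and fall into basal and luminal groups, so that any gene differing between those groups will correlate.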

How the data were processed

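RNA-seq of 29 mouse samples was deposited, of which 21 were analysed. Per the labels, libraries of SMART-Seq v4 and Nextera XT were made from sorted cells (RIN above 8) or laser-captured tissue (RIN above 6.5), and the submitters' processing notes name bcl2fastq 2.20, kallisto 0.44.0, sleuth and DESeq2 1.18. The transcript index is not given in the sources used here. The authors deposited a signal per gene, the normalized count: kallisto estimates summed to genes and divided by DESeq2 factors within each table. Whole reads could not be recovered from these values, so the depth each library reached is unknown (the paper states only a target) and no counting interval is given. The deposited fold changes and p-values of the authors' own comparisons were not used, and neither were the 8 columns of the table with and without BBN for 1 month.

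From 5 tables, log2(normalized count + 1) was fitted with limma 3.58.1 (R 4.3.3; eBayes with a trend), over genes with at least 10 normalized counts in as many libraries as the smaller group. P-values are two-sided and adjusted by the Benjamini-Hochberg method over all genes tested, with a threshold of 0.05. In luminal against basal tumors the luminal domains of the table stayed in the fit. The scripts were tested on simulated data. Libraries are numbered in column order, since replicate numbers of the labels could not be tied to columns. Figures were drawn with matplotlib 3.10.9 and sequences read with Python 3.11.15. The members and gene lists were chosen with earlier results of these data known. All members are described. Of the other channel genes, at most 6 called per comparison are named, by size of change, and for each member up to 3 genes most like it, leaving out Gm and Rik gene models and pseudogenes. The gene most like Piezo1 is not reported here. Pseudocounts of 0.5 and 5, other filters (none, or at least 50), no trend, robust fits, array weights, other scalings and leaving out each library were tried as alternatives.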

Additional observations from a re-analysis of the deposited data

Results flagged for a closer look

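Over the 19 pairs of a member and a 4-day group, 2 single values stood apart from the rest of their group on the log2 scale by Dixon's test, which marks about 1 group in 20 by chance. Aqp1 was 137 normalized counts in 4-day control 4, against 23.8 to 29.6 in the other controls. Slc14a1 was 16796 in 4-day control 1, against 11063 to 11863 in the other controls.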

How the results depend on the processing

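No paired analysis was possible because the columns carry no replicate numbers and the labels do not tie the domains to lesions. The cause of the changes listed here was not tested. Of the members' log2 fold changes under all alternatives, 539 kept direction and side of the threshold, 24 lost the call, 1 gained it and 23 reversed.

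At 4 days, 467 genes were called (290 higher, 177 lower), 269 without a trend, 1054 with array weights, 147 in the table of 3 against 3 libraries and 2 with only the libraries of low Y-linked genes, and in the last pair of settings 0 members were called. After quantile normalization the split was 270 higher and 287 lower. In luminal tumors, 338 genes were called, 52 with no filter, 142 without a trend, 513 with luminal tumors and domains pooled and 142 with only basal and luminal tumor libraries, with 1 member called under no filter and 1 without a trend. In luminal domains against basal tumors, 377 genes were called, 144 with no filter and 107 without a trend, with 1 member called under no filter, 0 without a trend and 1 under upper-quartile scaling. Between the domains, 20 genes were called without a trend. Upper-quartile scaling moved the median of all genes from -0.11 to -0.25 in luminal tumors and from 0.01 to -0.14 in luminal domains. The scalings of the channel lists were added after seeing the data.

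With each library left out, called genes ranged from 129 (without 4-day control 3) to 596 (without mutant 2) at 4 days, from 3 (without luminal tumor 1 or 2) to 813 (without luminal tumor 3) in luminal tumors, and from 0 (without luminal domain 1 or 2) to 467 (without basal tumor 2) in luminal domains. Called members ranged from 0 to 3 in luminal tumors and from 0 to 1 in luminal domains.

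Reversals were among differences that were not called. At 4 days the log2 fold change of Slc14a1 was 0.084, of Scnn1b 0.14 and of Trpv4 0.048 in the 3 against 3 table, that of Scnn1a was -0.17 after quantile normalization, and with the libraries of low Y-linked genes Scnn1a was -0.31 and Scnn1b 0.10. Scnn1a was 0.54 in luminal tumors pooled with domains. With each library left out, Slc14a1 ranged from -0.065 to 0.14, Scnn1a from -0.15 to 0.19 and Scnn1b from -0.17 to 0.060 at 4 days. In luminal tumors Scnn1a ranged from -2.09 to 1.51, Piezo1 from -1.54 to 0.41 and Kcnj15 from -3.34 to 0.56. Kcnj15 ranged from -1.17 to 2.16 in luminal domains against basal tumors, and Aqp1 from -0.20 to 0.75 between the domains. With 3 libraries a group and unknown depth, low members such as Scnn1b, Kcnj15 and Clca4b are the least certain.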
